A study of Mus musculus with 9 samples.

Results

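The 8 genes F3, F5, F7, F10, F13a1, Plau, Plaur and Thbd encode proteins of blood clotting and clot breakdown, several of which monocytes and macrophages are known to make or carry. They were chosen by name, with earlier results of these data known, from the 53801 genes listed for each library. All 8 were found by matching the deposited Ensembl identifiers to mouse symbols. Their levels were followed in monocytes/macrophages sorted from the blood of sham-operated mice, from the blood of mice after ischemic stroke, and from the brain after ischemic stroke.

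Clotting begins when tissue factor, the product of F3, binds factor VII on a cell surface and the pair activates factor X. Factor X then joins its cofactor, factor V, to make thrombin, which cuts fibrinogen into fibrin, and factor XIII crosslinks the fibrin strands. Thrombomodulin turns thrombin toward the anticoagulant protein C pathway, and urokinase, held at the surface by its receptor, activates plasminogen to dissolve the clot. Monocytes are a known cellular source of the factor XIII A subunit and carry the urokinase receptor, and tissue factor on monocytes is known to be inducible.

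All mice were male C57BL/6J of 9 weeks. In the stroke groups the distal middle cerebral artery and the common carotid artery of the left side had been permanently occluded (dMCAO), and cells were collected 5 days later; the day of collection after sham surgery is not given in the sources used here. Cells were sorted as CD11b+CD45high, with CD11c+ and Ly6G+ cells excluded. The groups were sham blood (no stroke, peripheral blood, 3 libraries of 1 mouse each), stroke blood (3 libraries of 1 mouse each) and stroke brain (3 libraries, each a pool of the ipsilesional hemispheres of 5 perfused mice). Blood and brain also differed in cell preparation, with enzymatic dissociation for brain only, so that tissue, preparation and pooling cannot be told apart.

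Each library held between 18475118 and 22623578 counted reads, and levels are given as counts per 1000000 reads (CPM), with library sizes corrected by edgeR's TMM factors over the 9 libraries. The 6 monocyte and macrophage markers had reads in every library. They summed to 86839 to 123880 CPM in sham blood, 99613 to 107331 in stroke blood and 40780 to 47253 in brain, most of it Lyz2. In each brain comparison 1 of the 6 was called lower and 0 higher, and 4 were lower and 1 higher in every brain library. The groups also differed in other markers. The 5 classical monocyte markers summed to 12179 to 29303 CPM in sham blood, 10211 to 12315 in stroke blood and 3686 to 4885 in brain. The 7 microglia markers were all called higher in brain, where they summed to 556.9, 866.2 and 1854 CPM in replicates 1, 2 and 3, against at most 50.2 CPM in blood. Platelet markers (10 genes) summed to 378.9 to 456.7 CPM in stroke blood and 36.2 to 79.9 in brain, and sham blood replicate 1, at 20.98 CPM, stood apart from the other sham libraries at 509.8 and 764.6. Most of the brain sums was Pf4, at 31.9, 53.0 and 74.1 CPM, against 4.72 CPM in sham blood replicate 1. Erythroid transcripts followed the same split within sham blood, at 1248 CPM in replicate 1 against 31060 and 33799. The 6 endothelial markers summed to 12.3 to 33.4 CPM in sham blood, 28.6 to 50.1 in stroke blood and 27.0 to 33.0 in brain, most of it Flt1. Of these 6, Cldn5 and Tek had no reads in any library, and Kdr, with 77, 130 and 186 reads in brain and 1 to 23 in blood, was 1 of 2 tested and was called higher in brain in both comparisons. The 6 dendritic cell markers summed to 103.2 to 345.6 CPM in sham blood, 98.6 to 224.2 in stroke blood and 624.1 to 802.8 in brain, with 5 of 6 called higher against stroke blood and 2 against sham blood. In brain replicates 1, 2 and 3, the 6 border-associated macrophage markers summed to 74.0, 137.0 and 209.9 CPM, against at most 102.3 in blood. The 7 neutrophil markers summed there to 595.4, 710.3 and 1073 CPM (427.0 to 1791 in blood). For the 6 lymphocyte markers the brain sums were 96.4, 135.4 and 190.3 CPM (47.5 to 166.0 in blood). The 5 non-classical monocyte markers summed to 1000.2 to 1250.2, 1372 to 1579 and 1494 to 4150 CPM, with 1 called higher in brain in each comparison. Nr4a1 made up 3105, 689.7 and 863.6 CPM of the sums in brain replicates 1, 2 and 3. Against stroke blood, 2 of the 5 markers were higher and 2 lower in every brain library.

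**Figure D1:**
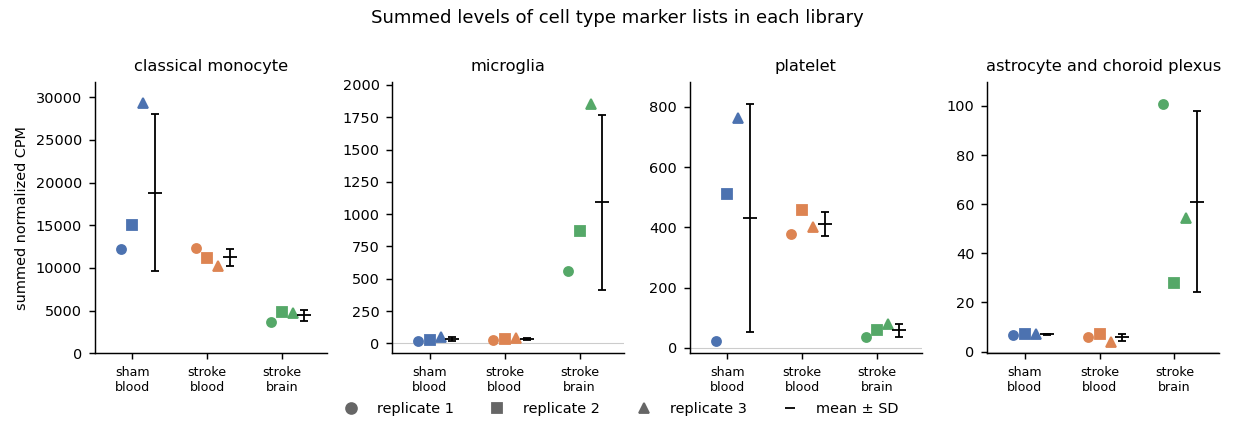
Summed normalized CPM of 4 lists of cell type markers in each of the 9 libraries (points, shaped by replicate), with the mean and SD of each group. Microglia markers were at 556.9 CPM or more in the brain libraries and at most 50.2 CPM in blood. The platelet sum of sham blood replicate 1 (20.98 CPM) lay below those of all brain libraries, which were mostly Pf4.

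Stroke brain libraries had higher levels of Plau, Plaur and F7 transcripts, and lower levels of F13a1 transcripts, than stroke blood libraries. Plau was 6.46-fold, F7 4.08-fold and Plaur 2.26-fold higher in stroke brain than in stroke blood, and F13a1 was 2.09-fold lower. A gene was called when its fold change exceeded 2 in either direction with a Benjamini-Hochberg adjusted p below 0.05 in edgeR's quasi-likelihood test. By this rule 3 of the 7 members tested were called higher, against 13.1% of all genes tested, and 1 was called lower, against 7.86%. As the members were chosen with earlier results of these data known, such counts, here and below, are no test of an excess over all genes. The libraries of the groups did not overlap for 5 of the 7, which was the case for 48.2% of all genes tested. Because these are bulk samples, a higher or lower level can reflect a different share of a cell type or a different amount of RNA in each cell. These cannot be told apart here.

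Against sham blood, Plau and Plaur (2.48-fold) were called higher in brain and F13a1 lower (3.26-fold). The fitted fold of Plau was 25.3, but sham blood held only 2 to 4 Plau reads a library, about the floor of 3 counts, so its size is imprecise. These were 2 members called higher, with 9.75% of all genes called higher, and 1 called lower, with 3.67% called lower. Groups did not overlap for 5 of the 7 members tested, against 41.2% of all genes. Both brain comparisons use the same brain libraries.

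Between stroke blood and sham blood, none of the 6 members tested was called by edgeR, where 0.0079% of all genes were called. DESeq2 also called 0 members, where it called 135 of the 23335 genes it fitted. At an unadjusted p below 0.05, 1 of the 6 passed, F13a1, where 12.5% of all genes did, so that this count was near the background. A test that misses the threshold with 3 libraries a group does not show that the levels were equal.

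**Figure D2:**
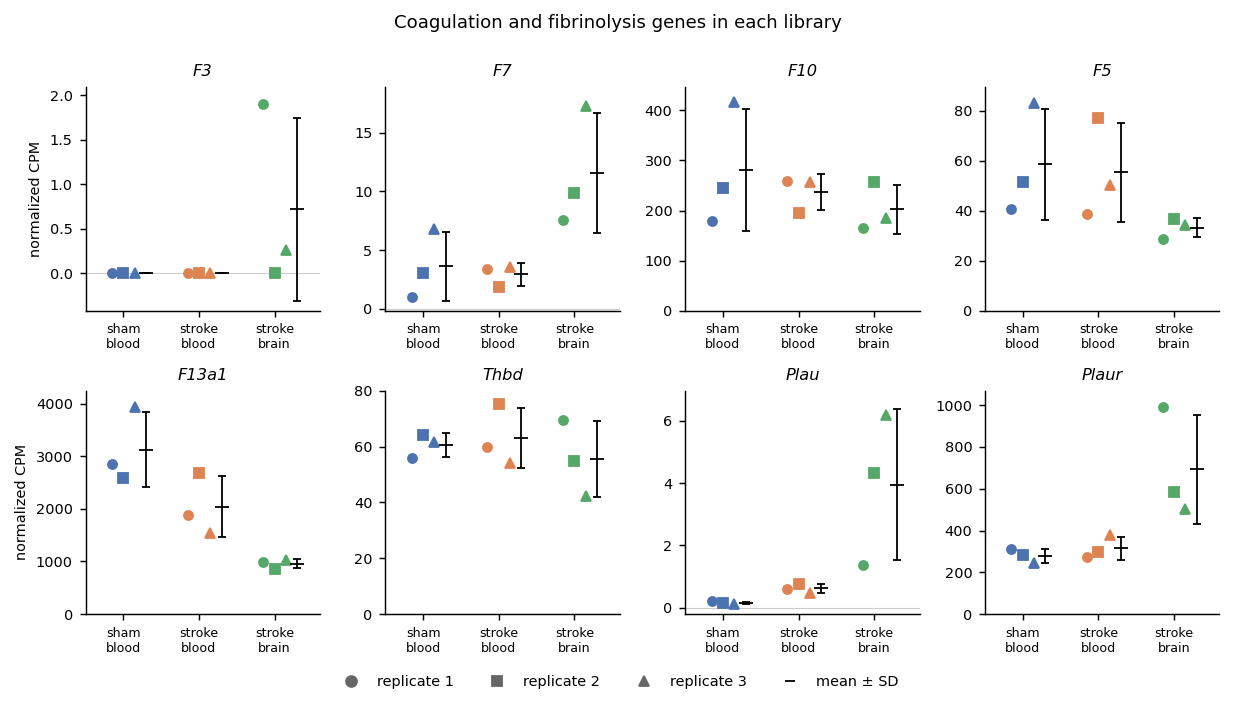
Normalized CPM of the 8 genes in each library (points, shaped by replicate), with the mean and SD of each group beside them. Plau, Plaur and F7 were highest in stroke brain and F13a1 lowest, without overlap between brain and blood libraries, whereas F10 and Thbd overlapped between all groups.

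**Figure D3:**
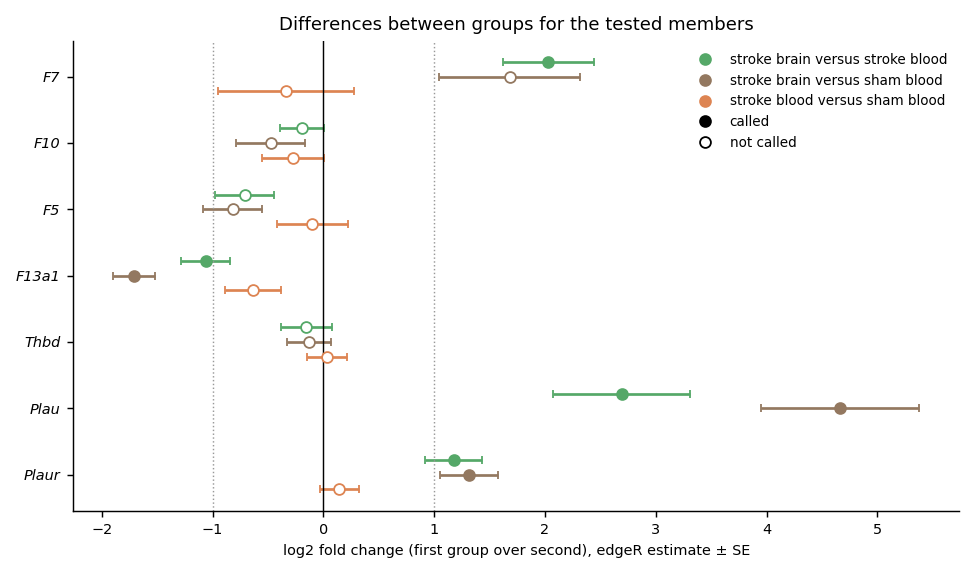
The log2 fold change of each tested member in the 3 comparisons, as edgeR's estimate with its SE, with filled points for called genes and dotted lines at a 2-fold change. Plau lay farthest from 0, at 4.66 against sham blood, and all estimates between the blood groups lay within 1 of 0.

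The members spanned a wide range of abundance. On the scale of CPM per kilobase of exon, which allows genes of different length to be compared, F13a1 led in blood, at a mean level of 463.7 in sham blood and 303.4 in stroke blood. In brain the order of the leading pair was reversed, with Plaur at 264.8 and F13a1 at 142.4 CPM per kilobase, and their libraries did not overlap. Among the 25369 genes ranked in each library by this scale, F13a1 took places 81 to 127 in sham blood, 136 to 311 in stroke blood and 334 to 389 in brain, while Plaur moved from places 477 to 614 in blood to 112 to 261 in brain.

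F10 ranked behind that pair by mean level in all 3 groups, at 102.7, 86.8 and 74.0 CPM per kilobase in sham blood, stroke blood and brain, and it overlapped with Plaur in sham blood. Thbd followed at 16.3, 17.0 and 14.9, and F5 at 7.87, 7.44 and 4.46. F7 had a level of 1.94 and 1.57 CPM per kilobase in the blood groups, below F5 in both, and 6.23 in brain, where the libraries of F7 and F5 overlapped. Plau, at 0.0633, 0.260 and 1.67, and F3 were the least abundant of the 8 in every group.

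**Figure D4:**
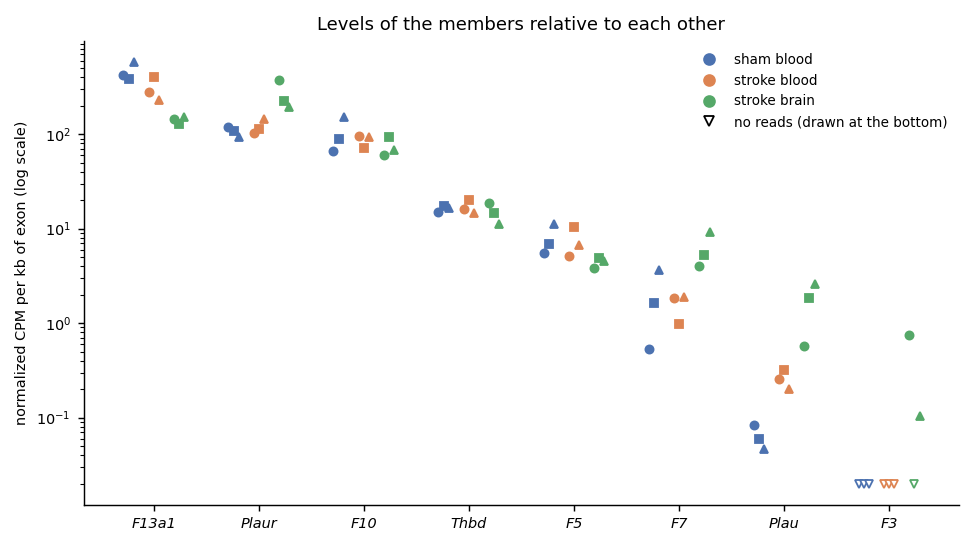
Normalized CPM per kilobase of exon, on a log scale, for the 8 genes in the 9 libraries, with open triangles for libraries without a read. F13a1 lay highest in the 6 blood libraries and Plaur in the 3 brain libraries.

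Tissue factor transcripts were nearly absent. F3 (ENSMUSG00000028128, chr3:121723537-121735048 on the plus strand of GRCm38) had 0 reads in all 6 blood libraries, which at 3 counts a library allows levels up to 0.140 to 0.180 CPM. The brain libraries held 39, 0 and 6 reads, a mean of 0.720 ± 1.03 CPM (SD, n = 3), so that 1 library carried most of them. F3 fell under the low-count filter of the edgeR test. DESeq2, which applied no such filter, called it against stroke blood (adjusted p = 0.0183) and against sham blood (adjusted p = 0.0279), and edgeR without the filter called it against stroke blood (adjusted p = 0.0236) but not against sham blood (adjusted p = 0.0643).

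Astrocytes are a known source of tissue factor in the brain. The 6 astrocyte and choroid plexus markers summed to 101 CPM in brain replicate 1, the library with 39 F3 reads, and to 28.1 and 54.2 CPM in replicates 2 and 3, against at most 7.19 in blood. Ttr, a transcript of the choroid plexus, had 1760, 334 and 944 reads in brain and 0 in blood, and made up most of the sum in replicate 1. Of the astrocyte markers, Aldoc had 219, 282 and 261 reads in brain and 67 to 151 in blood, Slc1a2 had 15, 19 and 11 against 0 to 3, Gfap had 1, 9 and 24, and Aqp4 had 0, 3 and 0. Within brain, Gfap and Aldoc were lowest in replicate 1, and Slc1a2 was lowest in replicate 3. All 3 markers of this list that were tested were called higher in brain than in stroke blood, and 2 of 3 against sham blood. The sums of dendritic cell markers (802.8 CPM) and non-classical monocyte markers (4150 CPM) were also highest in brain replicate 1. The part of any of these cells in the F3 reads was not tested.

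F7, which encodes the protease that tissue factor binds, lies at chr8:13026034-13035809 and ends 1498 bases before the start of F10 (chr8:13037308-13056676), which encodes the protease that factor VII activates. Both genes (ENSMUSG00000031443 and ENSMUSG00000031444) are on the plus strand. The 250 bases before the RefSeq start of each gene (GRCm38.p6, plus strand, chr8:13025784-13026033 and chr8:13037058-13037307) are shown. They were picked because F7 was called higher in brain than in stroke blood and F10 was not. A difference in response between the neighbours was not tested. Capitals mark the PU.1 motif GAGGAA, read on both strands, PU.1 being a transcription factor of the myeloid lineage.
F7: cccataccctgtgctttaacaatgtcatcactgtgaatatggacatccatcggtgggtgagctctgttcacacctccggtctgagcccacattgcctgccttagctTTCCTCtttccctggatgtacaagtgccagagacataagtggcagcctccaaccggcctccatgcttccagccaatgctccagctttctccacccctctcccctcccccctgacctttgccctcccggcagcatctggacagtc
F10: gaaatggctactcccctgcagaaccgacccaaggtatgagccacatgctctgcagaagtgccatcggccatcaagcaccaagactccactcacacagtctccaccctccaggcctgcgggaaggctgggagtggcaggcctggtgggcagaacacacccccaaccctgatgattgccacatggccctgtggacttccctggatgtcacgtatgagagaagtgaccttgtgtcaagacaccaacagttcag
F7 held 1 such match, as the reverse complement, and F10 held none in this window, where 23.3% of all 32851 RefSeq promoter windows of the same length held at least 1.

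F7 was measured at 0.994, 3.03 and 6.80 CPM in sham blood, 3.41, 1.80 and 3.53 in stroke blood, and 7.55, 9.84 and 17.3 in brain. Every brain library was above every blood library, although sham blood replicate 3 came close to the lowest brain library. The log2 fold change was 2.03 ± 0.41 (SE) against stroke blood (edgeR adjusted p = 0.0057). Against sham blood it was 1.68 ± 0.64 (adjusted p = 0.103), which was not a call, but DESeq2 gave a call (adjusted p = 0.0239), as did edgeR without sham blood replicate 3 (2.51, adjusted p = 0.0484). Between the blood groups it was -0.34 ± 0.61 (adjusted p = 0.835).

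Brain replicate 3, highest for F7, was also highest for the microglia markers (1854 CPM), and replicate 1 was lowest for both. The border-associated macrophage, neutrophil and lymphocyte sums had the same replicate order. The part of RNA from these cells in the F7 level was not tested.

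F10 was present at 179.9, 245.7 and 416.0 CPM in sham blood, 258.3, 195.2 and 257.2 in stroke blood, and 164.4, 256.5 and 185.3 in brain. All 3 groups overlapped. The log2 fold changes were -0.19 ± 0.20 (SE) for brain against stroke blood (edgeR adjusted p = 0.489), -0.48 ± 0.31 for brain against sham blood (adjusted p = 0.32) and -0.27 ± 0.28 between the blood groups (adjusted p = 0.689).

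The neighbours were therefore far apart in level, and their ratio changed between tissues. For every 100 reads of F10, sham blood libraries held 0.553, 1.23 and 1.64 reads of F7, and stroke blood libraries held 1.32, 0.923 and 1.37. Brain libraries held 4.59, 3.83 and 9.36, all above the blood libraries. Within sham blood, replicate 1 was lowest and replicate 3 highest for both genes, and in stroke blood replicate 2 was lowest for both, so F7 and F10 ranked alike within each blood group except for the near-equal stroke blood replicates 1 and 3.

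F5, the cofactor of activated factor X, lies at chr1:164151838-164220277 on the plus strand (ENSMUSG00000026579). A long noncoding RNA gene on the opposite strand, Gm16548, overlaps its exons by 262 bases, and the strand setting of the counting is not given in the sources used here. F5 was measured at 40.7, 51.4 and 83.1 CPM in sham blood, 38.5, 77.2 and 50.1 in stroke blood, and 28.8, 36.4 and 34.2 in brain. All brain libraries were below all blood libraries, but the margin to the lowest blood library was small. The log2 fold change was -0.71 ± 0.26 (SE) against stroke blood (edgeR adjusted p = 0.0687) and -0.82 ± 0.27 against sham blood (adjusted p = 0.0677), and neither was a call. Without sham blood replicate 1, the library poor in platelet transcripts, the difference from sham blood became a call (-1.02, adjusted p = 0.0324), and 4 members were then called in this comparison. Between the blood groups it was -0.10 ± 0.32 (adjusted p = 0.909).

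F13a1 encodes the A subunit of factor XIII, the transglutaminase that crosslinks fibrin, and was the most abundant member in blood. The gene (ENSMUSG00000039109) lies at chr13:36867178-37050244 on the minus strand, and Gm30489, an antisense gene, overlaps its exons by 74 bases. F13a1 was measured at 2855, 2589 and 3930 CPM in sham blood, 1891, 2691 and 1551 in stroke blood, and 986.1, 866.8 and 1025 in brain. Brain libraries were close to each other and all below the blood libraries, and stroke blood replicate 2 overlapped with sham blood.

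For brain against sham blood the log2 fold change of F13a1 was -1.71 ± 0.19 (SE, edgeR adjusted p = 0.00158). Against stroke blood it was -1.06 ± 0.22 (adjusted p = 0.0062), close to the 2-fold limit, and it was -0.84 without stroke blood replicate 2 and -0.99 without brain replicate 2, below that limit in both. With library size in place of TMM it was -0.91, but the median of all genes tested then moved from 0.06 to 0.22, and relative to that median F13a1 was lower by the same amount in both, at -1.13. Between stroke blood and sham blood it was -0.64 ± 0.25, with an unadjusted edgeR p of 0.0323, an adjusted p of 0.364 and a DESeq2 adjusted p of 0.2.

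Platelets are another known carrier of F13a1 transcripts, and 9 of the 10 platelet markers were called lower in brain than in stroke blood. The platelet sum of sham blood replicate 1, at 20.98 CPM, was below that of every brain library. This order came from Pf4, at 4.72 CPM in that library and 31.9, 53.0 and 74.1 CPM in brain. Ppbp, Itga2b, Tubb1, Gp5, Clec1b and Treml1 were higher in that sham library than in every brain library. It held 2855 CPM of F13a1, and the part of platelets in the F13a1 level was not tested. F13b, which encodes the carrier B subunit of plasma factor XIII, had 0 reads in all 9 libraries. The classical monocyte markers were lower in brain, as F13a1 was, with 4 of 5 called lower in both comparisons. Within groups the orders did not always match. In brain, replicate 2 had the highest marker sum (4885 CPM) and the lowest F13a1 (866.8 CPM), while in sham blood replicate 3 was highest for both. The part of classical monocytes in the F13a1 level was not tested.

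The 250 bases before the start of F13a1 (GRCm38.p6, minus strand, chr13:37050245-37050494) and of Plaur (plus strand, chr7:24462233-24462482) are shown as those of the abundant members that were called in opposite directions. Capitals mark matches, on either strand, to AP-1 (TGANTCA), PU.1 (GAGGAA), Sp1 (GGGCGG) and the cyclic AMP response element (TGACGTCA).
F13a1: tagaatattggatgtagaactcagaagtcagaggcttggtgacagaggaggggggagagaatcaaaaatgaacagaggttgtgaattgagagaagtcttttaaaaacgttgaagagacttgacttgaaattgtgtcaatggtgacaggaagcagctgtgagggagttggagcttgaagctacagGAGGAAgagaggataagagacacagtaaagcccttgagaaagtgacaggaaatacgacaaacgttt
Plaur: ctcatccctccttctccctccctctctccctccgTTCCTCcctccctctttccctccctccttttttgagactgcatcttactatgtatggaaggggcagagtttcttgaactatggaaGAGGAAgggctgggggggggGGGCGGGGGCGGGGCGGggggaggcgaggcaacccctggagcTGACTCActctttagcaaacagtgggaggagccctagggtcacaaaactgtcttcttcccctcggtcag
The Plaur window held 1 AP-1 match beginning 69 bases before the start, 2 PU.1 matches and 3 Sp1 matches, the last 2 of which share 1 base. The F13a1 window held 1 PU.1 match, beginning 66 bases before the start, and no other. RefSeq gives a second F13a1 start, 1031 bases away, whose window (chr13:37049214-37049463) held none of the 4 motifs. Of all 32851 windows, 6.75% held an AP-1 match, 32.7% an Sp1 match and 1.55% a cyclic AMP response element. Among the 6 members with a window in the RefSeq table, AP-1 matches were found in F3 (2 matches) and Plaur, and no window held a cyclic AMP response element. A match is a description of the letters and does not show that a factor binds there.

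Thbd encodes thrombomodulin, the surface receptor that redirects thrombin from clotting to the activation of protein C. It is a gene of 1 exon (ENSMUSG00000074743, chr2:148404466-148408188, minus strand). Thbd was measured at 55.9, 64.2 and 61.6 CPM in sham blood, 59.9, 75.3 and 54.3 in stroke blood, and 69.5, 54.8 and 42.1 in brain. The groups overlapped in all comparisons. The log2 fold changes were -0.15 ± 0.23 (SE) for brain against stroke blood (edgeR adjusted p = 0.643), -0.13 ± 0.20 for brain against sham blood (adjusted p = 0.69) and 0.03 between the blood groups, the last turning to -0.0039 with library size in place of TMM. Within brain, Thbd was highest in replicate 1 and lowest in replicate 3, as was Plaur and opposite to F7 and Plau.

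Plau encodes urokinase, the protease that activates plasminogen. The gene (ENSMUSG00000021822) lies at chr14:20836660-20843385 on the plus strand. Its levels were low, at 0.199, 0.140 and 0.111 CPM in sham blood (4, 3 and 2 reads), 0.611, 0.758 and 0.479 in stroke blood (12, 16 and 8 reads), and 1.36, 4.32 and 6.19 in brain (28, 104 and 142 reads). No library of one group overlapped with another group, and the order was sham blood, stroke blood, stroke brain. The log2 fold change was 2.69 ± 0.62 (SE) for brain against stroke blood (edgeR adjusted p = 0.0106) and 4.66 ± 0.71 against sham blood (adjusted p = 0.0052).

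Between the blood groups Plau had too few reads to pass the low-count filter. The difference of the means there was 0.466 CPM, with a two-sided exact permutation p of 0.1, the smallest that 3 against 3 libraries can give. Without the filter, edgeR gave an unadjusted p of 0.0391 and an adjusted p of 0.436, so this difference did not survive correction. Within brain, Plau was lowest in replicate 1 and highest in replicate 3. The sums of microglia, border-associated macrophage, neutrophil and lymphocyte markers had the same order. The part of these cells in the Plau level was not tested.

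Plaur encodes the urokinase receptor, a surface protein that holds urokinase at the leading edge of migrating leukocytes. The gene (ENSMUSG00000046223) lies at chr7:24462484-24475968 on the plus strand. Plaur was measured at 310.1, 283.5 and 242.4 CPM in sham blood, 271.4, 297.6 and 376.3 in stroke blood, and 990.7, 584.3 and 504.0 in brain. Every brain library was above every blood library, and brain replicate 1 stood well above the other two.

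For Plaur the log2 fold change was 1.18 ± 0.26 (SE) for brain against stroke blood (edgeR adjusted p = 0.0085) and 1.31 ± 0.26 against sham blood (adjusted p = 0.0133). Without brain replicate 1 these were 0.83 and 0.96, under the 2-fold limit, with adjusted p of 0.0086 and 0.011. The adjusted p was 0.0506 without stroke blood replicate 1, and 0.0504 and 0.0578 without sham blood replicates 2 and 3. Between the blood groups the value was 0.14 ± 0.17 (adjusted p = 0.746). In contrast to Plau and F7, Plaur was highest in the brain library with the lowest microglia sum (556.9 CPM). That library also had the highest sums of dendritic cell markers (802.8 CPM, against 647.9 and 624.1 in replicates 2 and 3) and of non-classical monocyte markers (4150 CPM, against 1494 and 1783). Most of that non-classical sum was Nr4a1, at 3105 CPM in replicate 1 against 689.7 and 863.6 in replicates 2 and 3. Ace, Itgal and Spn were also highest in replicate 1, and Treml4 was lowest there. The part of dendritic cells and non-classical monocytes in the Plaur level was not tested.

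The pathway around the members was described by 39 further genes of coagulation and fibrinolysis. Of these, 10 had no read in any library: F2, F11, F13b, Fga, Fgb, Fgg, Proc, Serpina5, Serpina10 and Plg, most of which encode plasma proteins made by the liver. In stroke brain against stroke blood, 16 of the 39 were tested, 3 were called higher (Procr, Serpine2 and Serpinb2) and 1 lower (Vwf), near the 13.1% and 7.86% of all genes called in each direction. Against sham blood, 16 were tested and the same 3 genes were called higher, with none lower, where 9.75% and 3.67% of all genes were called. Of the 15 tested between the blood groups 0 were called by edgeR, 3 had an unadjusted p below 0.05 (12.5% of all genes did), and DESeq2 called 0. The median log2 fold change of those tested was 0.15 for brain against stroke blood and 0.10 against sham blood, beside 0.06 and 0.01 for all genes tested.

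Protease inhibitors that act on the plasminogen activators were among these genes. Serpine2, which encodes protease nexin-1, an inhibitor of thrombin and urokinase, was measured at 1.24, 4.93 and 3.60 CPM in sham blood, 2.65, 3.65 and 1.26 in stroke blood, and 41.6, 45.6 and 123.6 in brain. The brain libraries were far above blood, by a log2 fold change of 4.81 ± 0.54 (SE, edgeR adjusted p = 0.00029) against stroke blood and 4.42 ± 0.62 against sham blood (adjusted p = 0.004). Replicate 3 was highest in brain, as for the microglia, border-associated macrophage, neutrophil and lymphocyte markers. The part of these cells in the Serpine2 level was not tested.

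Serpinb2, which encodes plasminogen activator inhibitor-2, was measured at 0.298, 1.40 and 2.21 CPM in sham blood, 3.16, 1.52 and 2.33 in stroke blood, and 39.4, 15.6 and 11.2 in brain. Its log2 fold change was 3.28 ± 0.51 (SE, edgeR adjusted p = 0.00162) against stroke blood and 4.09 ± 0.73 (adjusted p = 0.0091) against sham blood. It was highest in brain replicate 1 and lowest in replicate 3, the order seen for Plaur and for the dendritic cell markers, whose part in it was not tested.

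Plat, the tissue-type plasminogen activator, had 139, 28 and 0 reads in brain, and in blood 7 reads in 1 sham library and 1 in a stroke library. The brain and blood libraries overlapped for Plat, which had too few reads for the main test.

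In the protein C pathway, Procr, the endothelial protein C receptor, had 0, 3 and 5 reads in sham blood, 0 in all stroke blood libraries, and 20, 105 and 77 in brain. The brain libraries were at 0.974, 4.36 and 3.35 CPM. With 3 counts a library taken for stroke blood, their mean was 18.3-fold higher, a bound that does not hold for each brain library. The edgeR adjusted p was 0.00215, and against sham blood the log2 fold change was 4.35 ± 0.96 (SE, adjusted p = 0.0184). That call was lost without sham blood replicate 2 (edgeR adjusted p = 0.0695), brain replicate 2 (0.0607) or brain replicate 3 (0.0535). Pros1, which encodes protein S, was present at a mean of 96.6, 90.5 and 111.2 CPM in sham blood, stroke blood and brain, and was not called in any comparison. Thbd, likewise not called, belongs to the same pathway.

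Vwf, which encodes von Willebrand factor and is made by endothelial cells and megakaryocytes, was measured at 26.7, 28.7 and 21.8 CPM in stroke blood and 1.80, 2.53 and 2.96 in brain (log2 fold change -3.37 ± 0.28, SE, edgeR adjusted p = 6e-05). In sham blood it was 0.398, 25.5 and 41.0 CPM, low in the library poor in platelet transcripts, and brain was not called against sham blood (-3.19 ± 1.15, adjusted p = 0.0901) unless that library was left out (-3.77, adjusted p = 0.0011). Of the 10 platelet markers, 9 were called lower in brain than in stroke blood, as Vwf was, and their part in its level was not tested.

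Among the plasminogen receptors, S100a10 was lower in brain without reaching a 2-fold change, by -0.78 on the log2 scale against stroke blood (edgeR adjusted p = 0.0044) and -0.90 against sham blood (adjusted p = 0.005). Its partner Anxa2 was at -0.23 and -0.30 (adjusted p = 0.304 and 0.229). Lrp1, a scavenger receptor that clears complexes of urokinase with its inhibitors, was at -0.90 against stroke blood (adjusted p = 0.0071) and -0.28 against sham blood (adjusted p = 0.488). Plgrkt, another plasminogen receptor, was at 0.20 and 0.65 (adjusted p = 0.453 and 0.0463). None of the 3 genes of the vitamin K cycle (Ggcx, Vkorc1 and Vkorc1l1), which allow factors VII and X to be carboxylated, was called by edgeR in any comparison.

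**Figure D5:**
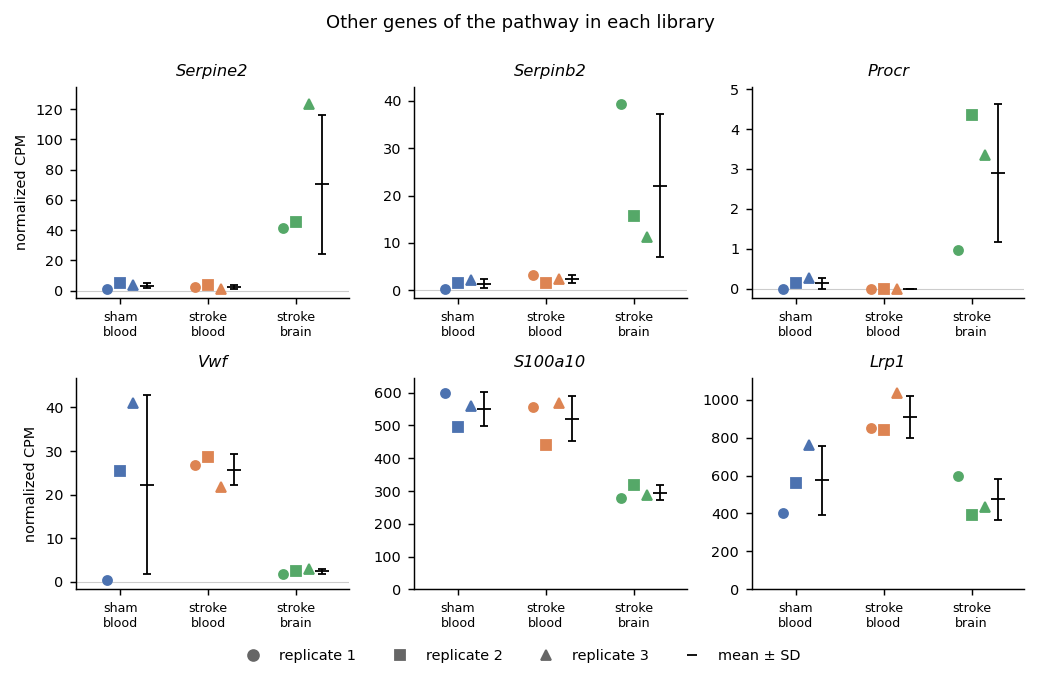
Normalized CPM of 6 further pathway genes in each library (points, shaped by replicate), with the mean and SD of each group. Serpine2, Serpinb2 and Procr were higher in all brain libraries than in any blood library, S100a10 was lower in all of them, and Vwf was near 0 in brain and in sham blood replicate 1.

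The genes whose pattern over the 9 libraries was most like that of each member are given as a description, by Pearson's r of log2(CPM + 1) over 9021 genes with a mean of at least 5 CPM. The libraries come from 3 groups, so a gene that differs between brain and blood can rank high for that reason alone. For Plaur these were Araf (0.981), Tnfrsf12a (0.98) and Rassf1 (0.978), and Tnfrsf12a had a mean of 6.59 CPM in sham blood, 6.57 in stroke blood and 26.5 in brain. For Plau they were Rhoh (0.982), Btbd19 (0.98) and Pon3 (0.972). For F7 they were C4b (0.978), Ctsl (0.961) and Zfyve19 (0.954). C4b, a complement component, had means of 6.32, 5.39 and 31.5 CPM in sham blood, stroke blood and brain. For F13a1 they were Pygl (0.985), Stk26 (0.974) and Smpd1 (0.971), and Pygl, the glycogen phosphorylase of liver and leukocytes, had means of 430.6, 323.9 and 172.3 CPM. The most alike gene was Mctp1 for F5 (0.97), Vrk3 for F10 (0.956) and Gmeb2 for Thbd (0.923).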

How the data were processed

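RNA was amplified with the SMART-Seq HT kit and sequenced as paired-end Nextera XT libraries. The authors aligned the reads with HISAT2 (genome build GRCm38) and obtained, with HTSeq, the deposited raw counts of each Ensembl gene. Versions and the strand setting are not given in the sources used here. Symbols, positions and exon lengths came from GENCODE M21, and promoter windows from RefSeq.

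Each pair of groups was fitted separately to all genes in R 4.3.3 with edgeR 4.0.16 (TMM, filterByExpr, quasi-likelihood test, Benjamini-Hochberg adjustment over all genes tested), and the fit was tested on simulated data. DESeq2 1.42.0, other filters and normalizations, a single fit of 9 libraries, a replicate block and leaving out each library were the alternatives. Levels are TMM-normalized CPM. All members were reported in every library, pathway genes were named when called or at 10 CPM in a group (1 listed gene is not reported here), and 3 alike genes were sought per member. The members and lists were chosen with earlier results of these data known. Counting error alone underlies the limits for 0 reads.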

Additional observations from a re-analysis of the deposited data

How the results depend on the processing

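Of 259 member fold changes recomputed under alternatives, 238 kept direction and call, 8 lost a call, 4 gained one and 9 changed sign. Cause was not tested. Members called in brain ranged from 3 to 4 against stroke blood and 2 to 4 against sham blood when a library was left out, and stayed 0 between blood groups. DESeq2 called 5 against sham blood, adding F3 and F7, where it called 2331 of the 24280 genes it fitted. Against stroke blood DESeq2 added F3 to the members called by edgeR, where it called 3197 of 24197 genes. Other pathway genes called ranged from 4 to 7 (stroke blood, 7 without brain replicate 1) and 2 to 5 (sham blood, 5 without sham blood replicate 1). Against sham blood they were 5 with no fold change threshold, 6 with DESeq2 and 5 with no filter.

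Leaving out libraries moved the log2 fold change of Thbd in brain between -0.35 and 0.0185 against stroke blood and between -0.33 and 0.0343 against sham blood, positive without brain replicate 3. Between blood groups it moved between -0.16 and 0.13 for Thbd, -0.47 and 0.23 for F5, -0.79 and 0.48 for F7, and -0.51 and 0.11 for F10, with Thbd at -0.0039 under library size only. None of these was a call.

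Same-numbered replicates did not deviate together (correlations -0.082 to 0.081). This check detected no pairing by number, but it cannot exclude shared mice or batches. With the replicate block, 2634 genes were called against 2771 without it in brain versus stroke blood, and F7 became a call against sham blood (1.93, adjusted p = 0.0282). The floor of 3 counts limits F3, Plau and Procr.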
